A study of Homo sapiens with 14 samples.

Results

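The 50 genes described here encode guidance cues and their receptors: semaphorins with plexins and neuropilins, ephrins with Eph receptors, Slits with Robos, and netrins with their receptors. They were taken from a list of symbols chosen by protein family, with earlier results of these data known. All 50 were found among the 61541 gene IDs of the deposited count table. Guidance proteins were first described as signals that attract or repel growing axons. A cue that is secreted or fixed to the surface of a neighbouring cell binds a transmembrane receptor, and the receptor alters the actin skeleton and adhesion of the cell that carries it. Epithelial and tumour cells use the same proteins in migration, in the sorting of cells into compartments and in contact with vessels and nerves. Many semaphorins signal through plexins, and the secreted class 3 members mostly need a neuropilin as co-receptor. Ephrins are themselves bound to the membrane, the A class by a lipid anchor and the B class by a membrane-spanning segment, so that they signal to Eph receptors only on cells in contact.

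RNA came from 6 libraries labelled BxPC-3, a human pancreatic cancer line. Of these, 3 were labelled shControl (a control short hairpin, genotype WT) and 3 shHDAC5 (a hairpin against HDAC5, a class IIa histone deacetylase, genotype HDAC5 knockdown), each sampled at day 3. GATA1, a transcription factor of blood cells, was immunoprecipitated from PANC-1, another human pancreatic cancer line, under the same treatment labels at day 3, and the authors deposited 1 peak list per label. The labels do not say whether libraries of a label are separate cultures; the p-values measure only how these libraries scatter, and that scatter may be technical. In bulk libraries, fewer cells of a type and less RNA per cell cannot be told apart.

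HDAC5 was not lower under its own knockdown label: it was at 94.9 ± 2.99 CPM (counts scaled to library size, mean ± SD, n = 3) under the shControl label and at 164 ± 4.44 CPM under the shHDAC5 label (log2 fold change 0.79, adjusted p = 3.95e-40, edgeR). All directions given here are therefore between libraries as labelled. The libraries held 15179758 to 17854340 counts, of which 0.210% to 0.236% fell on the 50 guidance genes. Of 10 epithelial marker genes, 8 were tested: 2 were higher under shHDAC5, 4 were lower and 2 did not pass. KRT8 (717 and 1010 CPM) and KRT18 (404 and 327 CPM) were abundant under both labels, the first higher and the second lower under shHDAC5. CLDN4 (8.43 and 14.5 CPM) was also higher, and KRT7 (371 and 25.3 CPM), CLDN7 (115 and 10.6 CPM) and DSP (538 and 150 CPM) were lower. EPCAM (1.84 and 1.99 CPM), CDH1 (1.43 and 1.33 CPM), KRT19 (0.0215 and 0.0947 CPM) and OCLN (0.405 and 0.403 CPM) were near 0 under both labels. The identity of the line is therefore given as labelled, with the defining epithelial markers EPCAM, CDH1 and KRT19 nearly absent. The list summed to 2144 to 2173 CPM under shControl and 1507 to 1567 under shHDAC5. Markers of endothelium (34.0 to 38.1 and 25.9 to 28.7 CPM in sum), fibroblasts (124 to 133 and 88.0 to 94.0) and leukocytes (10.1 to 11.3 and 9.62 to 11.1) summed to less or about the same under shHDAC5. Single genes of these lists differed both ways: of those tested, 1 endothelial marker was higher and 2 lower, 1 fibroblast marker higher and 3 lower, and 1 leukocyte marker higher and 1 lower. VWF (0.238 and 2.26 CPM) and ITGAM (0 and 2.78 CPM) were higher, both passing the low-count filter only through shHDAC5. Of 8 neuron markers, 7 were tested and 6 were higher under shHDAC5 (3 of the 7 passed the low-count filter only through those libraries and had to be higher), from 48.4 to 53.4 up to 187 to 191 CPM in sum, with STMN2 and NEFL at 0 in every library labelled shControl. Of 8 Schwann cell and glia markers, 7 were tested, 6 were higher (5 of the 7 passed the filter only through shHDAC5) and 1 lower, from 49.8 to 51.6 up to 70.7 to 74.5 CPM in sum. The part of the marker genes in the results on guidance genes was not tested.

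Expression was compared between labels by edgeR's quasi-likelihood test over the whole table, and p-values adjusted after Benjamini and Hochberg passed below 0.05. Gene spans are given as annotated by RefSeq on GRCh38.p14. A gene was tested where enough libraries passed a low-count filter: 19181 genes did so, among them 44 of the 50 guidance genes. Most of the table differed between the labels: 84.7% of the genes tested passed, 44.8% of them higher in the libraries labelled shHDAC5 and 39.9% lower. Of the 44 guidance genes tested, 24 were higher, 17 were lower and 3 (SEMA3C, SEMA4A and EFNA4) did not pass, so that 93.2% passed. The sizes of the differences lay further from 0 than in the table as a whole. At least 2-fold differences were found in 46.5% of the genes tested (26.4% higher, 20.1% lower) and in 33 of the 44 guidance genes, 21 of them higher and 12 lower. The median absolute log2 fold change was 1.89 over the guidance genes and 0.91 over all genes tested, and the signed medians were 0.76 and 0.09. The 3 tested genes without a count under shControl lie above both guidance medians even at their lower bounds. Setting them to those bounds therefore could not move the medians of 1.89 and 0.76, and is no check of them. These counts and medians describe the list and carry no test, because the list was chosen with earlier results of these data known. In addition, 8 members (SEMA5A, EFNB3, EPHA1, EPHA4, EPHB2, EPHB3, EPHB6 and ROBO2) passed the low-count filter only through the libraries labelled shHDAC5 and so had to differ. No member passed it only through those labelled shControl. SLIT2 reached the filter's minimum in only 1 library labelled shControl, and so also passed through those labelled shHDAC5. The CPM of the labels did not overlap for 41 of the 44, against 84.8% of all genes tested.

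**Figure D1:**
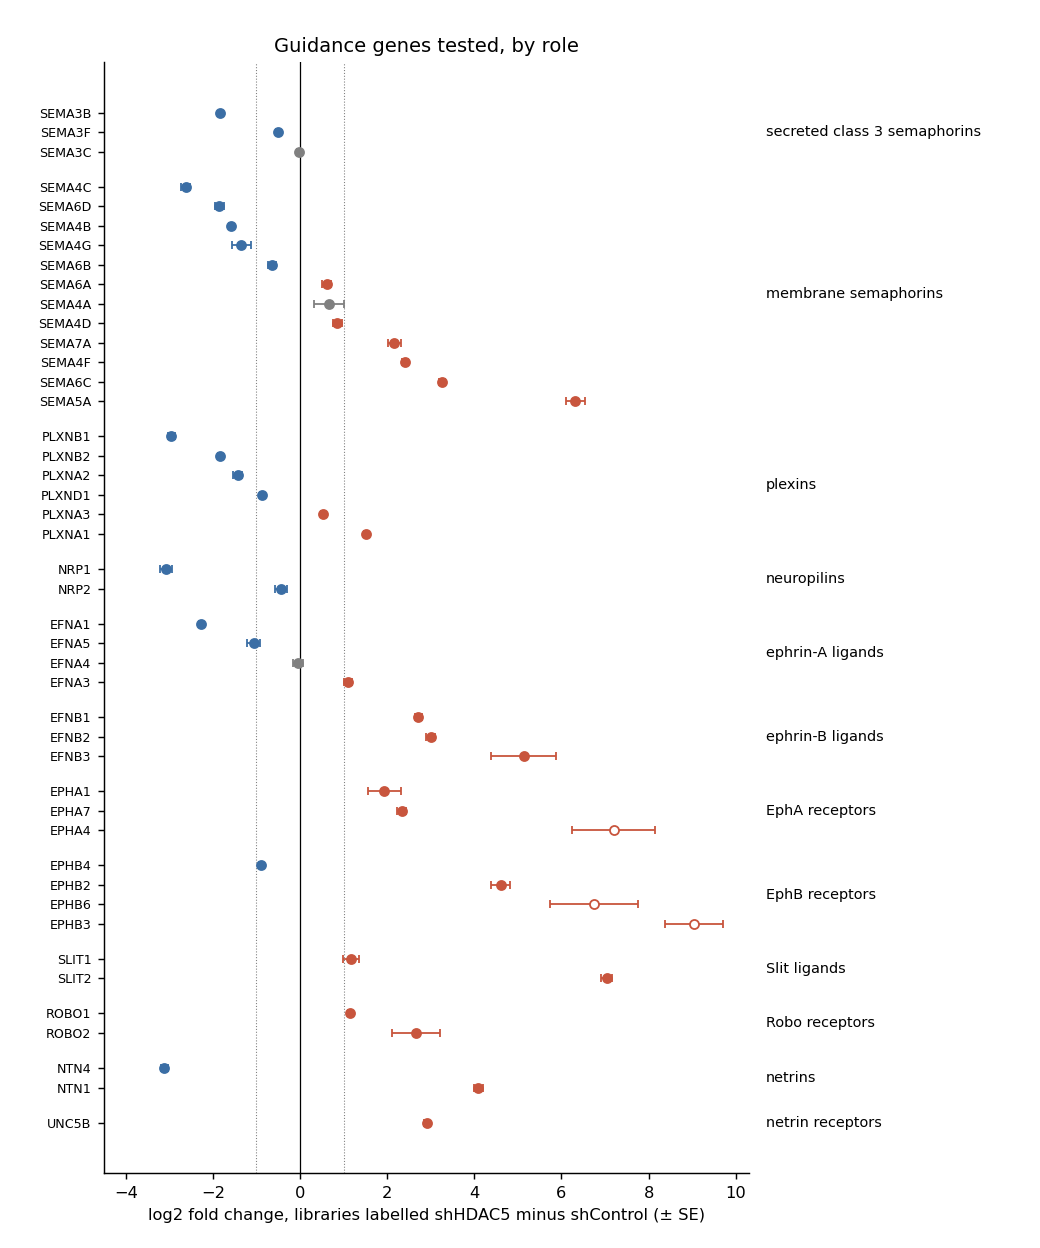
The log2 fold change (horizontal axis, libraries labelled shHDAC5 minus shControl) is plotted with its standard error for the 44 guidance genes tested, grouped by role; red points were higher, blue lower, grey did not pass, open circles had no count under shControl and depend on the fit's prior count, and dotted lines mark 2-fold. Ephrin-B ligands, Eph receptors other than EPHB4, Slits and Robos lie to the right, neuropilins and most plexins to the left, and netrins on both sides.

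Promoter sequences are shown for members with a peak summit close before the annotated start or with a neighbour of the same family on the chromosome, and for EPHB3 as a gene without counts under shControl. Each is the stretch of 250 bases ending just before the start, read 5′ to 3′ on the gene's strand, from RefSeq on GRCh38.p14. In the first 3, capitals mark the 21 bases centred on the summit of an authors' GATA1 peak from the list labelled shControl, which lay 82 bases before the start of SLIT2, 129 before that of NTN4 and 17 before that of EFNA4. None of these peaks reached a q of 0.05. In EFNA3, capitals mark the only GATA word of the stretch. EFNA1 and EPHB3 held neither. The stretches lie at chr4:20251655-20251904 on the plus strand (SLIT2), chr12:95791156-95791405 on the minus strand (NTN4), chr1:155063490-155063739 (EFNA4), chr1:155078587-155078836 (EFNA3) and chr1:155127626-155127875 (EFNA1), all plus, and chr3:184561535-184561784, plus (EPHB3).
SLIT2: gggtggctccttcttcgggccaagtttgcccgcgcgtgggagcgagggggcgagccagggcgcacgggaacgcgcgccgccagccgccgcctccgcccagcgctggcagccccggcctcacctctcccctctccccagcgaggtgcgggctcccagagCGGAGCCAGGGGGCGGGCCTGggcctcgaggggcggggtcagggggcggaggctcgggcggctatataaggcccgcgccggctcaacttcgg
NTN4: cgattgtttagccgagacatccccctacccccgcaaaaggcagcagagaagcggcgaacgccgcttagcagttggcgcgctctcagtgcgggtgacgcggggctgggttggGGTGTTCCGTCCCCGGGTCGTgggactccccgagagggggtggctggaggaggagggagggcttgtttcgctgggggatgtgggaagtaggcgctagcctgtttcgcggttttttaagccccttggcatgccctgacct
EFNA4: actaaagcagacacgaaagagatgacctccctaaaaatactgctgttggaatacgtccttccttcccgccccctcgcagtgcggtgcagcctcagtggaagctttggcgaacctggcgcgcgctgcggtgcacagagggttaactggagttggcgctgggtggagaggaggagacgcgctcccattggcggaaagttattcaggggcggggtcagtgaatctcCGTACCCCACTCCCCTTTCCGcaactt
EFNA3: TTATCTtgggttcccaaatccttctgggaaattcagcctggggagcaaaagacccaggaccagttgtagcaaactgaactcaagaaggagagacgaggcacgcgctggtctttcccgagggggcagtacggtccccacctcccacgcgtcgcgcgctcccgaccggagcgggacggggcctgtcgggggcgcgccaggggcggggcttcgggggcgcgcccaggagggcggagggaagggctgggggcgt
EFNA1: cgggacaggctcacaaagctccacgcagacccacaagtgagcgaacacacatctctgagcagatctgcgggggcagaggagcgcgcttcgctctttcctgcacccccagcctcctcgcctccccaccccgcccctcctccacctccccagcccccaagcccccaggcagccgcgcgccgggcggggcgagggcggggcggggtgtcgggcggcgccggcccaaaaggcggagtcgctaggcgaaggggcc
EPHB3: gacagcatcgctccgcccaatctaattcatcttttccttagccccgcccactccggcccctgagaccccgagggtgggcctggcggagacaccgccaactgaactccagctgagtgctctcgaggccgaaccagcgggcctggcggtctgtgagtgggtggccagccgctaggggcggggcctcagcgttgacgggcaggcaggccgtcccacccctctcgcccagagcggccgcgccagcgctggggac

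All 6 stretches were rich in G and C, from 58.4% in EFNA4 and 64.4% in NTN4 to 73.2% in EFNA1 and 77.2% in SLIT2. The RefSeq promoter table held 43 of the 50 genes, and the median G and C content of the first promoter of each, from 250 bases before to 50 after the start, was 68.0%, against 65.0% over all genes tested. The 4 GATA words searched (AGATAA with AGATAG and TGATAA with TGATAG, on both strands) occurred in 8 of the 43 promoters, or 18.6%, in 15.6% of the first promoters of genes tested and in 25.0% of all promoters in the table. A match is a description of the letters only. The words occurred in promoters of 3 of 18 members at least 2-fold higher, against 18.9% of all such genes, and of 1 of 11 at least 2-fold lower, against 16.0%. The higher members include some that passed the low-count filter only through the libraries labelled shHDAC5, so nothing is read from these shares.

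The secreted class 3 semaphorins were lower or did not pass. SEMA3B (ENSG00000012171, chr3:50260226-50277546), a cue that repels cells through neuropilins and is known as a candidate tumour suppressor, was at 397, 406 and 414 CPM in the libraries labelled shControl and at 110, 114 and 116 CPM in those labelled shHDAC5. All 3 libraries of the second label lay below all 3 of the first, and the log2 fold change was -1.84 (SE 0.0305, adjusted p = 6.27e-81, edgeR). SEMA3F, a ligand of neuropilin 2, was at 128, 123 and 134 CPM against 90.7, 92.1 and 86.9 CPM. It fell by 0.52 on the log2 scale (SE 0.0382, adjusted p = 4.57e-24, edgeR), again without overlap. The 2 genes lie on chromosome 3 with 71.2 kb between them. SEMA3C, a cue of cardiovascular and neural crest development, was nearly level at 174, 175 and 175 against 168, 175 and 170 CPM (log2 fold change -0.03, SE 0.0317, adjusted p = 0.371, edgeR), and its sign depended on the scaling: the value was 0.11 with upper-quartile factors and 0.15 with total counts, both past the threshold. SEMA3A held 17 counts over the libraries labelled shControl and 11 over those labelled shHDAC5, SEMA3D 0 and 13, and SEMA3E 0 and 1, so that these 3 were too low to test.

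Levels between genes were compared per length, as TPM, the counterpart of CPM that divides each gene by its length, computed from the deposited counts and gene lengths. By that measure the class 3 semaphorins summed to 442 ± 5.38 TPM under shControl and 251 ± 5.29 TPM under shHDAC5 (SD, n = 3). SEMA3B made up 56.0% of the class under shControl and 29.6% under shHDAC5, while SEMA3C went from 22.8% to 42.3% and became the leading member. The level of SEMA3C itself was 101 TPM under shControl and 106 TPM under shHDAC5.

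The 12 membrane semaphorins, which act between touching cells or after cleavage, moved both ways: 6 were higher, 5 were lower and SEMA4A did not pass. SEMA5A (ENSG00000112902, chr5:9035033-9546075), which carries thrombospondin repeats, showed the largest difference. It was at 0.257, 0.279 and 0.241 CPM under shControl and at 23, 21.8 and 19.1 CPM under shHDAC5 (log2 fold change 6.32, SE 0.209, adjusted p = 2.54e-52, edgeR). SEMA6C (ENSG00000143434, chr1:151131685-151146631) went from 6.56, 7.34 and 6.94 CPM to 65.5, 67.9 and 65.7 CPM (log2 fold change 3.26, SE 0.0758, adjusted p = 1.18e-66, edgeR). SEMA6C thus differed by far more than the spread between libraries, from a moderate level. SEMA5A, near 0 under shControl, passed the low-count filter only through the libraries labelled shHDAC5 and so had to be higher. SEMA4F (log2 fold change 2.40) and SEMA7A, which is held by a lipid anchor (2.16), were also higher by more than 2-fold, and SEMA4D, the ligand of plexin B1 (0.85), and SEMA6A (0.61) by less.

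SEMA4B was the leading membrane semaphorin under shControl at 174, 174 and 176 CPM, and was at 60.3, 56.2 and 57.8 CPM under shHDAC5 (log2 fold change -1.59, SE 0.0383, adjusted p = 3.38e-65, edgeR). SEMA4C, a ligand of plexin B2, went from 31.1, 31.9 and 29.5 CPM to 5.2, 4.12 and 5.59 CPM (log2 fold change -2.63, SE 0.101, adjusted p = 2.48e-46, edgeR). SEMA6D, SEMA4G and SEMA6B fell by 1.85, 1.35 and 0.64 on the log2 scale. SEMA4A, known from immune cells, was at 1.03, 0.978 and 0.483 against 1.71, 1.20 and 1.01 CPM, which did not pass (log2 fold change 0.66, SE 0.346, adjusted p = 0.0685, edgeR) and passed without shHDAC5 replicate 3 (0.80, adjusted p = 0.0469). The class as a whole kept nearly the same level per length, 151 ± 1.11 and 159 ± 4.81 TPM, with other members in it. The share of SEMA4B went from 58.2% to 19.7%, that of SEMA6C from 2.80% to 27.3% and that of SEMA4F from 4.52% to 24.4%.

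Plexins, the semaphorin receptors, were lower in 4 of 6 cases. PLXNB1 (ENSG00000164050, chr3:48403854-48430310), the receptor of SEMA4D, was at 67.4, 60.5 and 67.2 CPM under shControl and 7.92, 9.10 and 8.22 CPM under shHDAC5. Its log2 fold change of -2.95 (SE 0.0738, adjusted p = 1.11e-63, edgeR) was the largest among the 6 plexins listed. The ligand SEMA4D and the receptor PLXNB1 thus differed in opposite directions. PLXNB2, the most abundant plexin per length under shControl, went from 393, 369 and 379 CPM to 107, 104 and 105 CPM (log2 fold change -1.85, SE 0.0312, adjusted p = 3.13e-80, edgeR). PLXND1, a receptor of vascular development, was at 396, 375 and 396 against 214, 208 and 210 CPM (log2 fold change -0.88, SE 0.0283, adjusted p = 1.27e-53, edgeR). PLXNA2 fell by 1.43 on the log2 scale.

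PLXNA1 went the other way, from 88.6, 78.2 and 80.8 CPM to 233, 238 and 232 CPM (log2 fold change 1.51, SE 0.0353, adjusted p = 2.6e-66, edgeR), and PLXNA3 was higher by 0.52. PLXNA1 and PLXNA3 are partners of neuropilins in class 3 signalling, and the listed members of the A class were therefore split, with PLXNA2 lower. The plexins summed to 409 ± 15.1 TPM under shControl and 266 ± 2.36 TPM under shHDAC5. PLXNB2 made up 44.9% of that sum under the first label and 20.7% under the second, and PLXNA1 6.30% and 29.7%. Per length PLXND1 led under shHDAC5 at 83.3 TPM, and PLXNA1 was close to it at 78.9 TPM.

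Both neuropilins were lower. NRP1 (ENSG00000099250, chr10:33177493-33334667), a co-receptor of class 3 semaphorins and of vascular endothelial growth factor, was at 21.6, 21.8 and 18.2 CPM under shControl and at 2.78, 2.52 and 1.96 CPM under shHDAC5 (log2 fold change -3.08, SE 0.134, adjusted p = 9.05e-42, edgeR). NRP2, the co-receptor of SEMA3F, was at 7.40, 9.92 and 7.85 against 5.67, 6.18 and 6.60 CPM (log2 fold change -0.44, SE 0.136, adjusted p = 0.00215, edgeR). The labels did not overlap for either gene, although the NRP2 libraries lay close together. With total counts in place of TMM scaling NRP2 no longer passed (-0.26, adjusted p = 0.0728). Together the neuropilins went from 8.38 ± 0.854 to 2.47 ± 0.0515 TPM, and NRP1 from 74.7% of that sum to 32.1%.

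**Figure D2:**
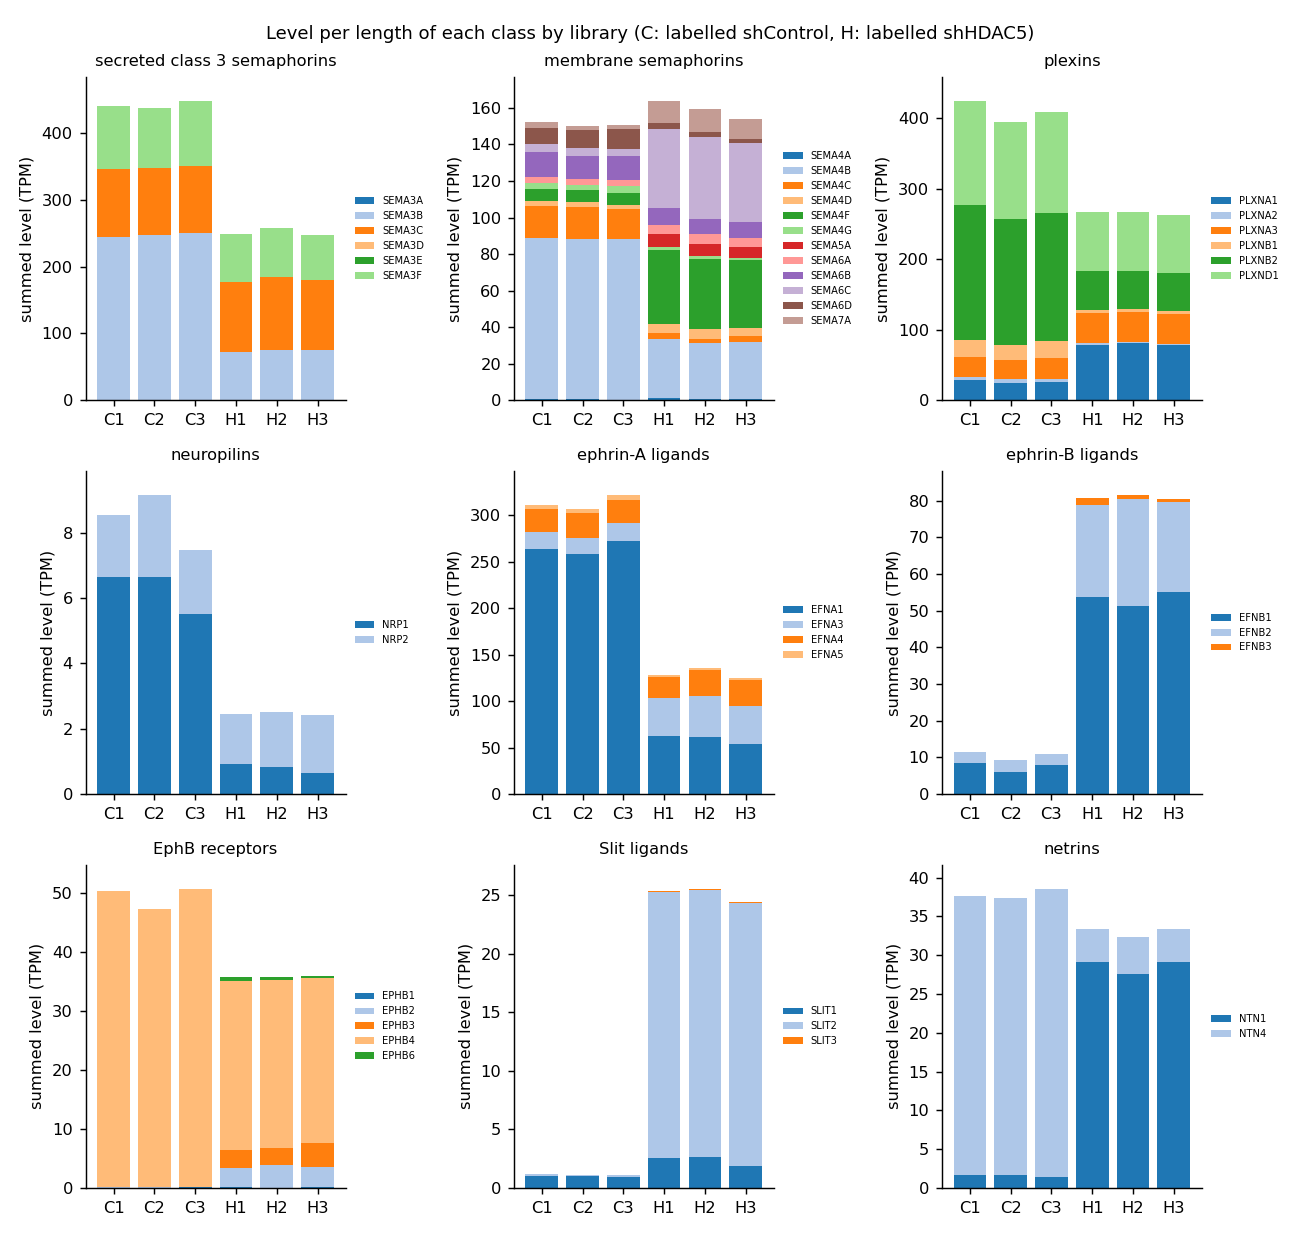
Stacked bars give the summed level per length (TPM, vertical axis) of 9 classes in each library, with colours for the members; C1 to C3 are labelled shControl and H1 to H3 shHDAC5. Under shHDAC5, membrane semaphorins keep a similar total and netrins a slightly lower one, each with another leading member. Ephrin-B ligands and Slits are higher under shHDAC5, and class 3 semaphorins, plexins, neuropilins and ephrin-A ligands are lower.

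The ephrin classes differed from each other: all 3 ephrin-B ligands were higher under shHDAC5, whereas of 4 ephrin-A ligands 2 were lower, 1 was higher and 1 did not pass. EFNB3, however, passed the low-count filter only through the libraries labelled shHDAC5 and so had to be higher. Whether the classes differ as classes was not tested. EFNA1 (ENSG00000169242, chr1:155127876-155134899), the ephrin-A ligand known to bind EPHA2, was at 161, 159 and 170 CPM under shControl and at 35.5, 35.2 and 30.8 CPM under shHDAC5 (log2 fold change -2.27, SE 0.0444, adjusted p = 5.7e-74, edgeR). EFNA5 went from 7.79, 7.48 and 8.87 CPM to 4.43, 3.38 and 3.75 CPM (log2 fold change -1.07, SE 0.153, adjusted p = 5.9e-10, edgeR). EFNA3 was higher, at 21.2, 22.4 and 21.3 against 9.91, 9.5 and 10.6 CPM (log2 fold change 1.11, SE 0.0940, adjusted p = 2.15e-20, edgeR). EFNA4 was at 8.69, 9.64 and 8.87 against 7.45, 9.33 and 9.39 CPM, with overlapping libraries (log2 fold change -0.05, SE 0.122, adjusted p = 0.695, edgeR). Its sign was positive with 2 other scalings and without shHDAC5 replicate 1.

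EFNA4, EFNA3 and EFNA1, whose upstream sequences are printed above, lie in this order on chromosome 1, with 9.3 kb between the first pair and 40.3 kb between the second. These neighbours therefore included a gene that did not pass, one that was higher and one that was lower. RefSeq also annotates a read-through gene over EFNA4 and EFNA3, so the split of reads between those 2 is uncertain. The ephrin-A ligands summed to 313 ± 7.66 TPM under shControl and 130 ± 5.55 TPM under shHDAC5, and EFNA1 remained the leading member while its share went from 84.6% to 45.4%.

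Of the ephrin-B ligands, which bind EphB receptors and, in the case of EFNB2 and EFNB3, also EPHA4, EFNB1 went from 7.92, 5.73 and 7.54 CPM to 46.9, 44.5 and 48.4 CPM (log2 fold change 2.71, SE 0.0852, adjusted p = 2.11e-54, edgeR). EFNB2 (ENSG00000125266, chr13:106489745-106535662), a marker of arterial endothelium and the ligand of EPHB4, went from 4.25, 4.61 and 4.22 CPM to 33.4, 38.4 and 32.8 CPM (log2 fold change 3.00, SE 0.102, adjusted p = 3.21e-51, edgeR). The labels overlapped for neither gene. EFNB3 held 0, 1 and 0 counts under shControl and 24, 17 and 12 under shHDAC5, a counting ratio of 47.1 (95% exact binomial interval 8.09 to 1894, counting error only, adjusted p = 1.14e-09, edgeR). The class summed to 10.6 ± 1.09 TPM under shControl and 80.8 ± 0.642 TPM under shHDAC5.

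The Eph receptors, tyrosine kinases that answer to ephrins, included 7 genes that could be tested. Of these, 5 (EPHA1, EPHA4, EPHB2, EPHB3 and EPHB6) passed the low-count filter only through the libraries labelled shHDAC5 and so had to be higher; of the other 2, EPHA7 was higher and EPHB4 lower. EPHA7 went from 4.57, 4.19 and 6.64 CPM to 24.6, 26.6 and 27.2 CPM (log2 fold change 2.33, SE 0.108, adjusted p = 2.39e-39, edgeR), and EPHA1 from 0.411 ± 0.0842 to 1.59 ± 0.179 CPM (SD, n = 3). EPHA4, a receptor of both ephrin classes, was without counts in all 3 shControl libraries and held 28, 12 and 18 counts under shHDAC5. Against a floor of 3 counts over the group, it was at least 17.3-fold higher (adjusted p = 3.33e-11, edgeR). EPHB2 (ENSG00000133216, chr1:22710838-22921500), known from sorting of cells along the intestinal crypt, was at 0.579, 0.349 and 0.483 against 10.9, 12.8 and 11.5 CPM (log2 fold change 4.61, SE 0.221, adjusted p = 3.12e-38, edgeR).

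EPHB3 (ENSG00000182580, chr3:184561785-184582408), which shares that role, held 0 counts in every library labelled shControl and 59, 61 and 89 counts (3.49, 3.49 and 4.98 CPM) under shHDAC5, at least 61.7-fold higher against the same floor (adjusted p = 2.01e-24, edgeR). EPHB6, a member without kinase activity, held 0 counts against 17, 13 and 12, at least 12.5-fold higher (adjusted p = 2.18e-09, edgeR). EPHB4 (ENSG00000196411, chr7:100802565-100827523) was the exception among the receptors and the only abundant EphB receptor under shControl. It was at 90.9, 86.6 and 93.2 CPM there and at 48.9, 48.0 and 47.7 CPM under shHDAC5 (log2 fold change -0.91, SE 0.0459, adjusted p = 2.97e-36, edgeR). EFNB2 and EPHB4, a ligand and receptor pair, thus differed in opposite directions. EPHB1 was too low to test, with 2 and 7 counts in sum.

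Because EPHB4 was so much more abundant than its relatives, the EphB receptors summed to less under shHDAC5, 35.8 ± 0.146 TPM, than under shControl, 49.4 ± 1.84 TPM, although EPHB2, EPHB3 and EPHB6 were higher. EPHB4 made up 99.7% of the sum under shControl and 79.0% under shHDAC5. EPHB2 and EPHB3 reached 9.88% and 9.26% under shHDAC5. The EphA receptors listed summed to 1.40 ± 0.275 and 7.84 ± 0.178 TPM. Most EphA receptor RNA lay outside the list, in EPHA2, which was at 167 ± 1.55 and 192 ± 7.23 CPM (log2 fold change 0.20, SE 0.0319, adjusted p = 1.03e-08, edgeR).

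**Figure D3:**
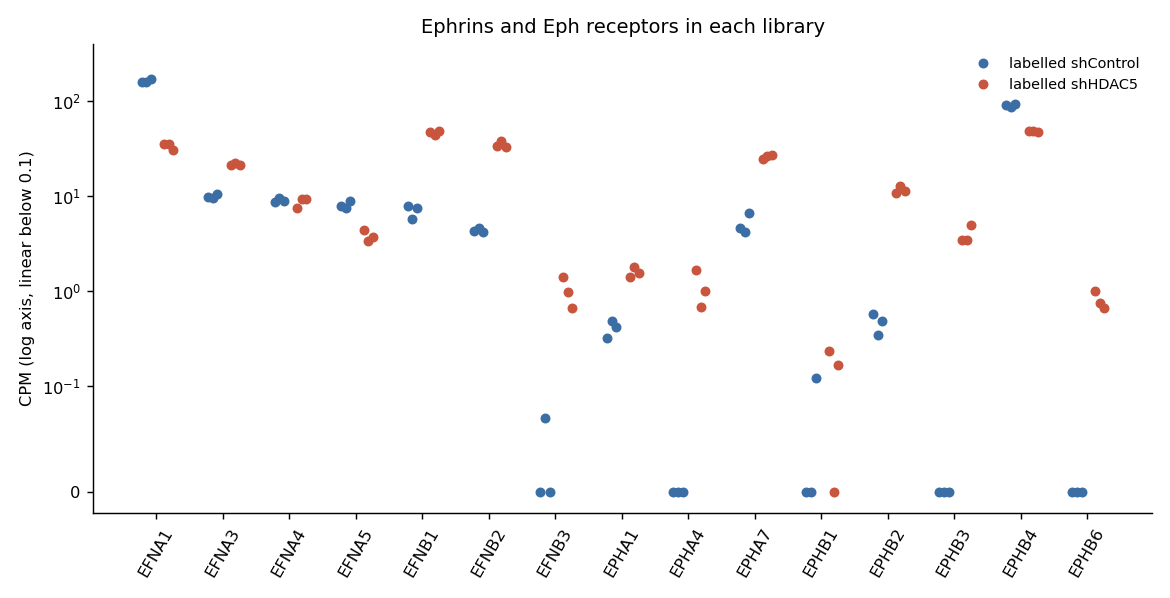
CPM (log axis, linear below 0.1) of 15 ephrins and Eph receptors, with 1 point per library in blue for libraries labelled shControl and in red for those labelled shHDAC5. EPHA4, EPHB3 and EPHB6 lie at 0 in the 3 libraries labelled shControl, EFNB1 and EFNB2 do not overlap between the labels, and EFNA4 does.

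Slits and their Robo receptors were higher wherever they could be tested, but only SLIT1 and ROBO1 passed the low-count filter under both labels. ROBO2 passed it only through the libraries labelled shHDAC5 and so had to be higher. SLIT2 (ENSG00000145147, chr4:20251905-20620561), a secreted repellent that binds ROBO1 and ROBO2 and whose promoter is printed above, was at 0.772, 0.349 and 0.362 CPM under shControl and at 66.6, 66.4 and 66.0 CPM under shHDAC5. This 132-fold difference (log2 fold change 7.04, SE 0.129, adjusted p = 1.42e-76, edgeR) was the largest among members with a count under both labels. Only 1 of the 3 libraries labelled shControl reached the filter's CPM minimum for SLIT2. The gene therefore passed the filter through those labelled shHDAC5, and its direction was not free. SLIT1 went from 2.51, 2.58 and 2.53 CPM to 6.15, 6.36 and 4.64 CPM (log2 fold change 1.16, SE 0.183, adjusted p = 1.04e-08, edgeR). SLIT3 held 2 and 21 counts in sum, a ratio of 9.32 (95% exact binomial interval 2.28 to 82.0), and was too low to test. ROBO1, the leading receptor, was at 71.4, 63.5 and 68.1 against 151, 151 and 149 CPM (log2 fold change 1.15, SE 0.0391, adjusted p = 3.27e-51, edgeR). ROBO2 was near the detection limit at 0.132 ± 0.0732 and 0.860 ± 0.0795 CPM (log2 fold change 2.66, SE 0.547, adjusted p = 6.05e-06, edgeR).

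Per length, the Slits summed to 1.15 ± 0.0665 TPM under shControl and 25.1 ± 0.594 TPM under shHDAC5, and the Robos to 21.6 ± 1.35 and 51.6 ± 0.687 TPM. SLIT2 made up 13.5% of the Slit sum under shControl and 90.2% under shHDAC5, and SLIT1 led under shControl with 85.6%. SLIT1 and ROBO1, which passed the low-count filter under both labels, were thus higher under the same label. The Slit sum under shHDAC5 rests mostly on SLIT2, whose direction was not free.

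The 2 netrins differed in opposite directions. NTN1 (ENSG00000065320, chr17:9003087-9244000), the netrin that guides axons through DCC and UNC5 receptors, was at 2.90, 3.00 and 2.66 CPM under shControl and at 49.4, 46.5 and 49.6 CPM under shHDAC5 (log2 fold change 4.09, SE 0.10, adjusted p = 1.96e-64, edgeR). NTN4 (ENSG00000074527, chr12:95657807-95791155), a basement membrane netrin related to laminins, was at 44.3, 44.4 and 46.5 against 5.02, 5.5 and 5.09 CPM (log2 fold change -3.11, SE 0.0889, adjusted p = 2.95e-58, edgeR). The summed level per length was slightly lower under shHDAC5, without overlap of the libraries, at 33.1 ± 0.643 TPM against 37.8 ± 0.618 TPM under shControl. From shControl to shHDAC5, NTN4 went from 95.9% of that sum to 13.6% and NTN1 from 4.13% to 86.4%. UNC5B (ENSG00000107731, chr10:71212570-71302864), a receptor of NTN1, went from 14.5, 16.4 and 14.8 CPM to 114, 114 and 115 CPM (log2 fold change 2.91, SE 0.0558, adjusted p = 8.72e-75, edgeR). DCC, the attractive netrin receptor that is often lost in cancers, held 1 and 31 counts in sum, a ratio of 27.5 (95% exact binomial interval 4.59 to 1122), and was too low to test. NTN1 and UNC5B were thus higher under the same label.

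**Figure D4:**
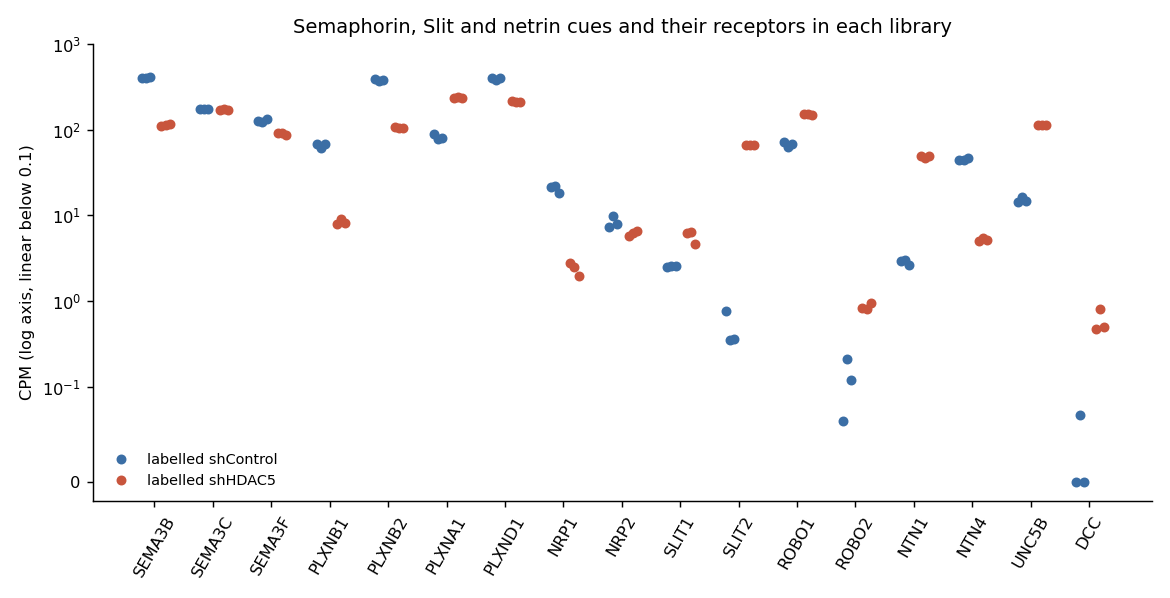
CPM (log axis, linear below 0.1) of 17 semaphorin, Slit and netrin cues and their receptors, 1 point per library, blue for libraries labelled shControl and red for shHDAC5. NTN1 and NTN4 exchange places, SLIT2 goes from below 1 to a mean of 66.3 CPM, and SEMA3C is nearly level.

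Across the 12 classes, the leading member per length differed between the labels in 6: SEMA3B and SEMA3C, SEMA4B and SEMA6C, PLXNB2 and PLXND1, NRP1 and NRP2, SLIT1 and SLIT2, and NTN4 and NTN1, each given as shControl and then shHDAC5. By CPM the leader also differed in 6 classes, with PLXND1 and PLXNA1 for the plexins. Several members overlap other genes: 35 of the 50 share bases with another RefSeq gene and 9 with a coding one, such as EPHB4 with SLC12A9 and SEMA4G with MRPL43. The strand setting of the counting was not given in the sources used here. Reads of such pairs, and of SEMA3B, UNC5B and EPHA1 with their antisense genes, cannot be told apart.

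Other genes of the same pathways, listed by role, also moved in both directions. Their counts carry no test, since 2 of the semaphorin group, 2 of the ephrin group, 5 of the effectors and 2 of the proteases passed the low-count filter only through the libraries labelled shHDAC5. Among 9 tested semaphorins, plexins and partners outside the list, 3 were higher, 5 lower and 1 did not pass (median log2 fold change -0.87). They included MET, which pairs with plexin B1 (215 ± 5.77 and 55.5 ± 0.592 CPM, -1.96), and the adhesion molecules L1CAM (400 ± 15.2 and 136 ± 6.0 CPM, -1.56) and CHL1 (25.5 ± 2.46 and 0.976 ± 0.250 CPM, -4.70), partners of neuropilins. MET and PLXNB1 were thus lower under the same label, as were NRP1, L1CAM and CHL1. Of 5 other ephrins and Eph receptors tested, 3 were higher and 2 lower. The higher ones included EPHA8 (0.0466 ± 0.0807 and 4.99 ± 0.379 CPM) and EPHA10 (0.113 ± 0.147 and 5.5 ± 0.330 CPM). Both passed the low-count filter only through the libraries labelled shHDAC5 and had to be higher.

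Of 13 other Slit, Robo and netrin genes tested, 10 were higher and 3 lower (median 1.82). However, 5 of them, RGMA and NTNG2 included, passed the low-count filter only through the libraries labelled shHDAC5 and had to be higher. RGMA, a ligand of the netrin receptor neogenin, was at 0.212 ± 0.149 CPM under shControl and 78.4 ± 1.38 CPM under shHDAC5 (log2 fold change 8.46, SE 0.141, adjusted p = 8.41e-81, edgeR). NTNG2, a membrane-anchored netrin relative, was higher by 4.64, and DAG1, dystroglycan, which binds Slits, fell by 0.78 on the log2 scale. All 44 intracellular effectors were tested, and 25 were higher and 19 lower (median 0.42). INPPL1, a phosphatase recruited by Eph receptors (376 and 108 CPM), and FYN, a kinase downstream of plexin A receptors (258 and 69.9 CPM), were lower, and MICAL2, which oxidises actin (24.7 and 123 CPM), was higher. Of 10 proteases that cut guidance proteins, 6 were higher and 4 lower (median 0.23), the latter including BMP1 (200 and 54.6 CPM), NCSTN, a subunit of gamma-secretase (106 and 40.1 CPM), and PCSK6 (53.4 and 17.7 CPM). These groups had lower and higher genes side by side, as in the table.

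The GATA1 peak lists came from PANC-1, not from the line of the RNA, and the names of the peaks go against the labels: peaks of the shControl list are named GATA1-SAHA-IP, and peaks of the shHDAC5 list are named GATA1-NC-IP. With 1 list per label there is no replicate check, and the lists differ in length, 121070 and 249139 peaks. Fold enrichment and q are the authors' own values. In the list labelled shControl, a summit lay within 1 kb of a gene end for 33 of the 50 guidance genes, against 52.1% of 20033 coding genes. In the list labelled shHDAC5 this held for 12 of 50, against 33.9%. Both lists had such a peak at 11 of the 50 members and at 19.8% of coding genes, and neither had one at 16, among them SEMA3C, SEMA3F, NRP1, NRP2, EFNB2, ROBO1 and UNC5B.

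The share depended on the window and the threshold. Within 5 kb it was 46 of 50 (70.6% of coding genes) and 40 of 50 (77.3%). At an annotated transcription start, a window added after the data were seen, it was 31 of 43 (49.7%) and 11 of 43 (25.6%). With an authors' q of at most 0.05, 6 members (6.49% of coding genes) and 0 members (0.255%) had a peak, and with a fold of at least 5 none had one in either list (0.634% and 0.02%). The 6 in the list labelled shControl were PLXNA3, SEMA5A, EPHB1, EPHB2, EPHB3 and ROBO2. PLXNA3 had the highest fold, 4.56, at chrX:154458338-154458906, with its summit 222 bases after the start. The SEMA5A peak (fold 4.31, chr5:9545669-9546073) lay 301 bases, the EPHB1 peak (4.01, chr3:134795389-134795969) 309 bases and the EPHB2 peak (4.34, chr1:22711085-22711927) 662 bases after a start. The EPHB3 peak (4.44) lay at the far end of the gene, and the ROBO2 peak (4.38) at a gene end away from the starts in the promoter table. Nothing is read from their RNA, since SEMA5A, EPHB2, EPHB3 and ROBO2 passed the low-count filter only through the libraries labelled shHDAC5 and EPHB1 was too low to test.

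The peak over the start of SLIT2 (chr4:20251571-20252708) had a fold of 3.79 and a −log10 q of 0.733, short of the threshold. Inside the gene bodies, 47 members (70.5% of coding genes) and 42 members (73.4%) held a summit. Over all member bodies the density was 5.16 peaks per 100 kb in the list labelled shControl, against 5.72 over all coding genes, and 9.59 against 8.67 in the other. In the first list the 26 members under 100 kb in span held 32.8 peaks per 100 kb (all coding genes of that span 10.1) and the 24 longer ones 3.23 (3.49). In the second list the values were 10.1 (8.97) and 9.56 (8.52), with no such gap between short and long members. The strongest body peaks were in ROBO1 (fold 6.04, chr3:79173152-79173905) and SEMA7A (5.56, chr15:74410575-74411099), both in the list labelled shControl. Set beside the RNA, peaks at gene ends in that list occurred at 16 of 21 members at least 2-fold higher and 10 of 12 at least 2-fold lower, where the shares over coding genes were 55.1% and 62.3%. In the list labelled shHDAC5 they occurred at 6 of 21 and 4 of 12, against 35.7% and 31.9%. No test was made of these shares. The 21 include the 8 members that passed the low-count filter only through the libraries labelled shHDAC5 and had to be higher. Nothing is therefore read from the shares by direction.

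**Figure D5:**
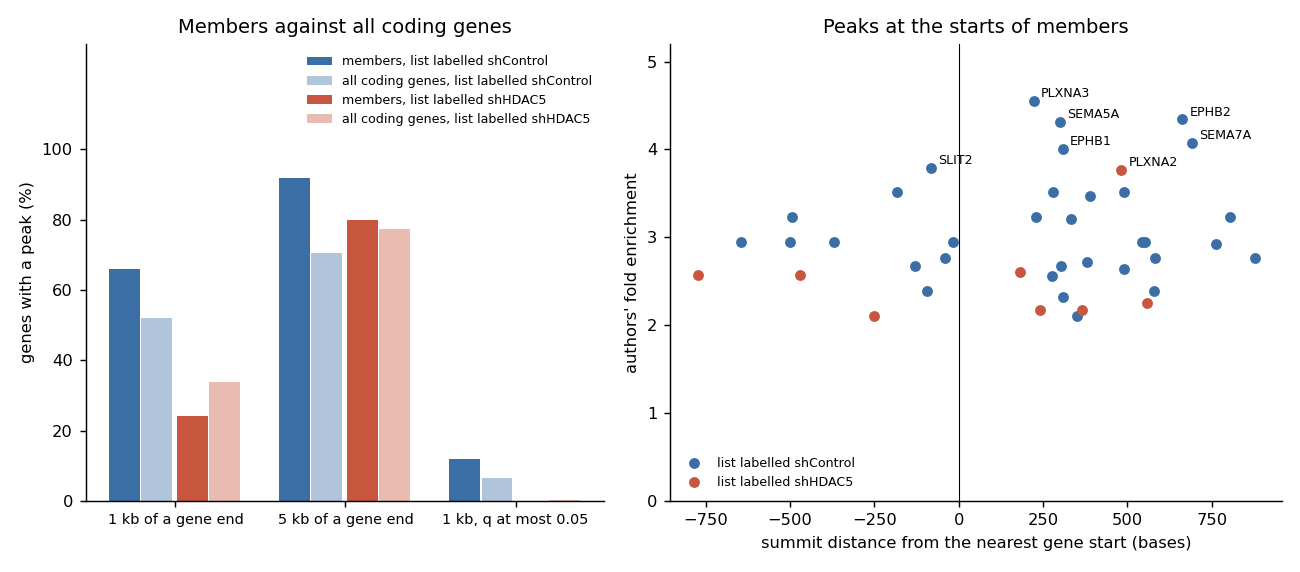
The left panel gives the percentage of the 50 guidance genes (full colour) and of 20033 coding genes (pale) with a GATA1 peak at a gene end in each authors' list, for 3 settings; the right panel gives the authors' fold enrichment of member peaks against the summit's distance from the nearest gene start in bases. In the list labelled shControl 33 of 50 members had a peak within 1 kb, and 6 at a q of at most 0.05.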

How the data were processed

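The 6 RNA libraries (labelled BxPC-3) and the GATA1 peak lists (PANC-1) were grouped by the treatment in their labels. The authors deposited unnormalized whole-number read counts for each Ensembl gene. MACS2 2.2.7.1, featureCounts 2.0.1, fastp 0.23.2, FastQC 0.11.9, deepTools 3.5.0 and hg38 appear in the submitters' processing notes, with no role stated. Aligner and strand setting were not given in the sources used here. Peak lists give, per peak, the fold enrichment as a ratio and the −log10 q that the authors deposited. Each list belongs to 2 immunoprecipitations and 2 inputs by the labels; their pooling was not given in the sources used here.

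Symbols were found for 61369 of 61541 gene IDs. Genes passing edgeR's filter by group (minimum count 10, here about 0.608 CPM) were scaled by TMM and tested across all genes with edgeR 4.0.16 (quasi-likelihood, R 4.3.3) on group alone, with Benjamini-Hochberg adjustment. CPM use TMM library sizes, and the standard error was taken as log2 fold change divided by the root of the F statistic. Folds against a label without counts use 3 counts over the group. Peaks were joined to RefSeq genes on GRCh38.p14 by summit, with Python 3.11.15 and pandas 2.3.3. Library counts within a label differed by more than sampling noise (chi-square per degree of freedom 1.54 to 2.06). Each library was counted as its own sample, although this scatter does not show that the libraries are separate cultures.

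The members and gene lists were chosen with earlier results of these data known. Values in each library are given for the 3 members per class with the largest called change at an average log2 CPM of at least 1, the leading member per length, members that did not pass, and members without counts under 1 label with at least 10 in each library of the other. In each pathway list up to 3 called genes with the smallest adjusted p are named. Alternatives were DESeq2 1.42.0, a replicate block, 3 other scalings, 2 other low-count filters, each library left out in turn, stricter thresholds, and other peak windows and cutoffs. Inputs and unpooled immunoprecipitations were not analysed here. Some marker genes are not reported here by name.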

Additional observations from a re-analysis of the deposited data

How the results depend on the processing

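Of 568 values of single members under alternatives, 557 kept direction and side of the threshold; the other 11 belong to SEMA3C, SEMA4A, NRP2 and EFNA4. SEMA3C turned positive with DESeq2 (0.00064, adjusted p = 0.988), RLE factors in edgeR (0.00067, 0.984), upper-quartile factors (0.11, 0.000656) and total counts (0.15, 3.16e-06). EFNA4 turned positive with upper-quartile factors (0.089, adjusted p = 0.492, edgeR), total counts (0.13, 0.302) and without shHDAC5 replicate 1 (0.038, 0.796), with -0.12 to 0.038 over the libraries left out. SEMA4A passed with upper-quartile factors (0.80, 0.027, edgeR), total counts (0.84, 0.0197) and without shHDAC5 replicate 3, and NRP2 no longer passed with total counts. These 2 scalings moved the median log2 fold change of all genes from 0.09 to 0.23 and 0.27, and the share of higher genes among those called from 52.9% to 58.1% and 59.6%; why the 4 members moved was otherwise not tested. With each library left out, the guidance genes gave 24 to 25 higher and 17 lower, 21 and 11 to 12 at 2-fold, and all genes 8499 to 8883 higher and 7622 to 7718 lower.

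With the replicate number as a block, the guidance genes gave 24 higher and 17 lower, as without it, and all genes 8514 and 7558; the deviations of same-numbered libraries were not correlated (-0.0156, 0.00321 and 0.0102), so the libraries share only a number. Members with a peak at a gene end numbered 6 with a q of at most 0.05 and 0 with a fold of at least 5 in the list labelled shControl, and 40 within 5 kb, 0 with that q and 0 with that fold in the list labelled shHDAC5. The cause of these moves is the setting's own construction, since fewer or more peaks enter. Low counts limit what can be said of the 6 members that were too low to test and of the genes near 0 under shControl, whose folds are bounds or carry wide intervals. Whether depth or absent expression lies behind these low counts was not tested.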
